A study of Saccharomyces cerevisiae with 4 samples.

Results

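Ribosome footprints of 40 translation factor genes were described in meiotic budding yeast lacking the RNA helicase Dbp1 and in wild type. The genes were taken by name, from a list of ORFs for cytoplasmic initiation factors eIF1 to eIF6, the exchange factor eIF2B, the cap-binding complex, Pab1, their regulators, the elongation factors and the release and recycling factors. The helicases TIF1 and TIF2 were not on the list. All 40 were among the 5371 ORFs of the deposited table. None of the 40 passed the test between genotypes. By mean RPKM over the 4 libraries, PAB1, HYP2, CAM1 and SUI1 were at the top and EFT1, TEF1 and GCN2 at the bottom. The levels listed for EFT1 and TEF1 are uncertain, since each has a near-identical second gene. Between the 2 dbp1Δ libraries RLI1, TEF4, PRT1 and GCN3 were at least 2-fold apart in RPKM, and between the wild-type libraries none of the 40 was 2-fold apart.

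In eukaryotic initiation, eIF2 bound to GTP delivers the initiator tRNA to the small ribosomal subunit, eIF1, eIF1A, eIF3 and eIF5 help it to scan for a start codon, and the cap-binding complex with Pab1 recruits the mRNA. eIF2B reloads eIF2 with GTP, eIF5B joins the large subunit, eEF1A, eEF2 and the fungal factor eEF3 carry out elongation, and eRF1, eRF3 and Rli1 release the peptide and split the ribosome. Dbp1 is a paralog of Ded1, a DEAD-box helicase that acts in initiation, and starving yeast entering meiosis lower the synthesis of the translation machinery.

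The series compared footprints of cells lacking the DBP1 ORF, with no selection cassette in its place, and of wild-type cells, at that locus and over all expressed genes. There were 2 dbp1Δ libraries and 2 wild-type libraries, all of SK1 diploids (MATa/MATalpha) collected 6 h after transfer to sporulation medium and treated briefly with cycloheximide. The paper's markerless deletion was made with Cas9 in a wild-type haploid, leaving no resistance marker in place of the DBP1 ORF. The diploid in its strain list carries the deletion on both chromosomes. The only diploid of that kind in the study's strain list is homozygous for ho::LYS2, lys2, ura3, LEU2, his3::hisG and trp1::hisG, and which of the listed wild-type diploids was profiled is not stated. No source says whether the deletion strain was checked as more than 1 clone. The values are RPKM, footprint reads scaled to the length of the ORF and to the mapped reads of the library, so they can be compared between genes per length. They are shares of a bulk library: fewer cells making a protein, less mRNA per cell and less translation of each mRNA cannot be told apart, and mRNA was not analysed here.

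The depth recovered from the steps of the values was 5789194 and 4971129 reads for the dbp1Δ libraries and 5294778 and 4619171 reads for the wild-type libraries. DBP1 (YPL119C) had 0.578 and 0.449 RPKM in dbp1Δ, against 164 and 147 RPKM in wild type (log2 fold change -7.27 ± 0.22 SE, limma adjusted p = 4.40e-06). All 10 markers of meiotic cells on a list that held IME1, ZIP1, DMC1 and NDT80 had footprints, with summed RPKM of 8674 and 7618 in dbp1Δ and 8061 and 7681 in wild type. Of 6 markers of haploid cells, STE3, GPA1 and STE4 were in the table and summed to 104 and 129 RPKM in dbp1Δ and 136 and 131 RPKM in wild type. dbp1Δ replicate 1 stood apart: over all tested ORFs it correlated at r = 0.978 with dbp1Δ replicate 2 and at 0.980 and 0.981 with the wild-type libraries, while the other 3 pairs lay between 0.989 and 0.992. With reads recovered for 39 of the 40 genes (EFB1 excepted), the 39 held 0.549% and 0.578% of mapped reads in dbp1Δ and 0.580% and 0.610% in wild type.

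**Figure D1:**
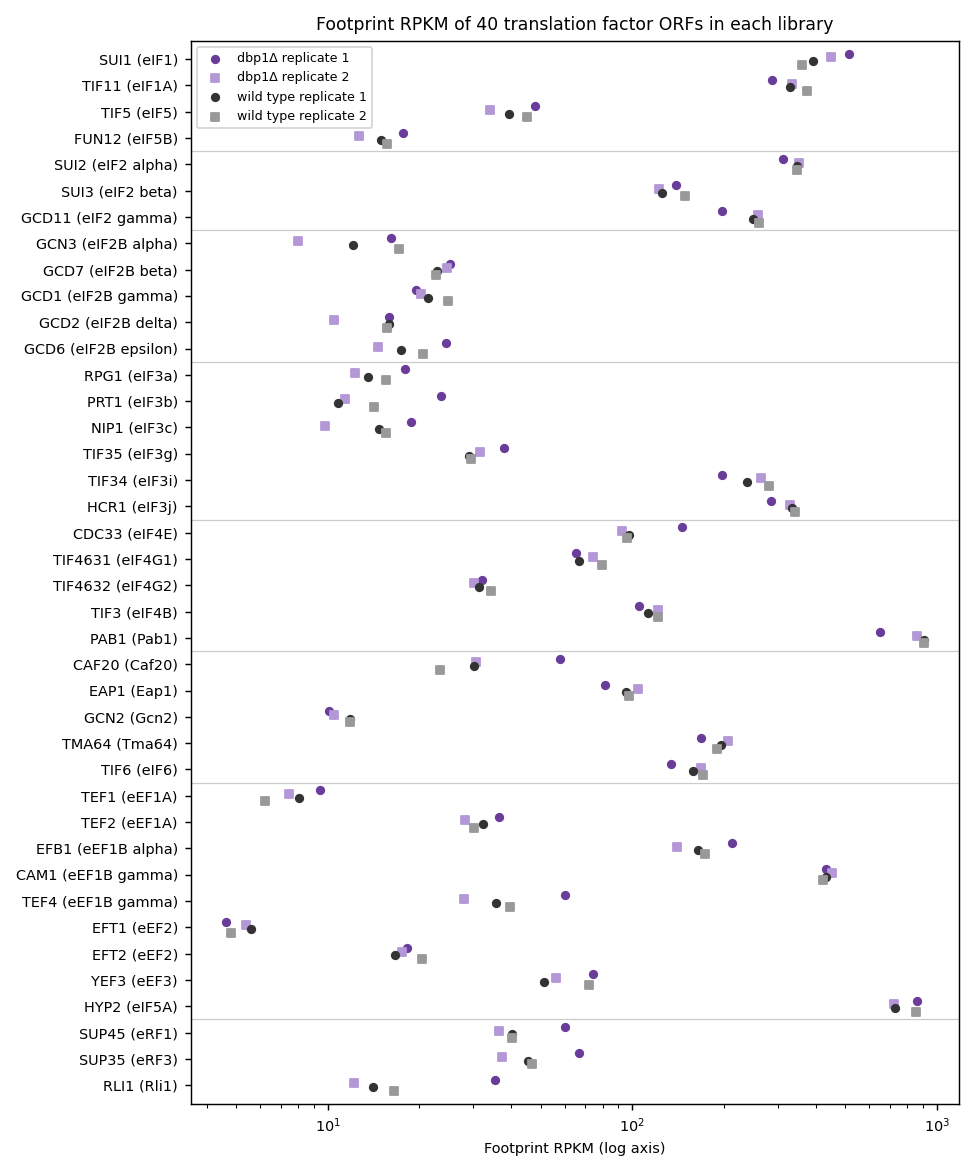
Footprint RPKM of each of the 40 translation factor ORFs (log axis) in the 2 dbp1Δ and the 2 wild-type libraries, 1 point per library, with lines between functional classes. Levels run from 5.10 RPKM for EFT1 to 833 RPKM for PAB1 (means of 4 libraries), and dbp1Δ replicate 1 is the point most often set apart. The levels listed for EFT1, EFT2, TEF1 and TEF2 are uncertain, as the ORFs of each pair are near-identical.

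Among the factors that choose the start site, SUI1 (YNL244C), which encodes eIF1, was the most footprinted. It had 514 and 448 RPKM in dbp1Δ, against 391 and 362 RPKM in wild type. Both dbp1Δ libraries were above both wild-type libraries, and the fitted log2 fold change was 0.35 (95% interval -0.01 to 0.71), with an unadjusted limma p of 0.0531 and an adjusted p of 1.0. TIF11 (YMR260C), encoding eIF1A, which binds next to the decoding site, had 288 and 333 RPKM in dbp1Δ and 329 and 376 RPKM in wild type. The order of these factors was thus eIF1 above eIF1A in 3 libraries and eIF1A above eIF1 in wild type replicate 2. TIF5, the GTPase-activating factor eIF5, had 47.9 and 34.0 RPKM in dbp1Δ and 39.3 and 45.1 RPKM in wild type. FUN12 (YAL035W), the subunit-joining GTPase eIF5B, was the lowest of the class, at 17.6 and 12.6 RPKM in dbp1Δ and 15.0 and 15.7 RPKM in wild type. For both TIF5 and FUN12 the dbp1Δ libraries lay on either side of the wild-type pair.

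The 3 subunits of eIF2 were not footprinted evenly. SUI2 (YJR007W), the alpha subunit that is phosphorylated under stress, had 311 and 354 RPKM in dbp1Δ and 348 and 346 RPKM in wild type. GCD11 (YER025W), the GTP-binding gamma subunit, had 197 and 258 RPKM in dbp1Δ and 248 and 260 RPKM in wild type. SUI3 (YPL237W), the beta subunit, was the lowest of the 3 in every library, with 139 and 123 RPKM in dbp1Δ and 125 and 149 RPKM in wild type. SUI3 therefore stood at 0.446 and 0.346 of SUI2 in dbp1Δ and at 0.360 and 0.431 of SUI2 in wild type. The genotypes overlapped in all 3 subunits.

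All 5 subunits of eIF2B lay below every eIF2 subunit. GCD7 (YLR291C), the beta subunit, was the highest by its mean, with 25.1 and 24.6 RPKM in dbp1Δ, against 22.8 and 22.7 RPKM in wild type. GCD1 (YOR260W), the gamma subunit, had 19.5 and 20.3 RPKM in dbp1Δ, against 21.4 and 24.8 RPKM in wild type. These were the only eIF2B genes whose genotypes did not overlap, GCD7 above wild type and GCD1 below it. GCD6 (YDR211W), the catalytic epsilon subunit, had 24.4 and 14.6 RPKM in dbp1Δ and 17.4 and 20.5 RPKM in wild type. GCD2 (YGR083C), the delta subunit, had 15.9 and 10.5 RPKM in dbp1Δ and 15.9 and 15.6 RPKM in wild type. In GCD2 only dbp1Δ replicate 2 stood clear below wild type. GCN3 (YKR026C), the alpha subunit through which eIF2B senses phosphorylated eIF2, was the lowest, at 16.1 and 7.97 RPKM in dbp1Δ and 12.1 and 17.2 RPKM in wild type. These GCN3 values rest on 80 and 34 reads in dbp1Δ and 55 and 68 reads in wild type.

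The eIF3 complex split into a low and a high group. The large subunits were close to each other: RPG1 (YBR079C), the eIF3a scaffold, had 17.9 and 12.3 RPKM in dbp1Δ and 13.6 and 15.6 RPKM in wild type. NIP1 (YMR309C), eIF3c, had 18.8 and 9.81 RPKM in dbp1Δ and 14.8 and 15.6 RPKM in wild type, and was the lowest of the complex by its mean. PRT1 (YOR361C), eIF3b, had 23.5 and 11.4 RPKM in dbp1Δ and 10.8 and 14.2 RPKM in wild type. For these 3 genes dbp1Δ replicate 1 was the highest library. TIF35 (YDR429C), the RNA-binding eIF3g, had 37.9 and 31.6 RPKM in dbp1Δ, against 29.1 and 29.4 RPKM in wild type, and did not overlap. TIF34 (YMR146C), the WD-repeat subunit eIF3i, was far higher, at 197 and 264 RPKM in dbp1Δ and 239 and 281 RPKM in wild type. HCR1 (YLR192C), the loosely bound eIF3j, was the highest, with 286 and 328 RPKM in dbp1Δ, against 333 and 342 RPKM in wild type. TIF34 and HCR1 were lowest in dbp1Δ replicate 1, the library in which the large subunits were highest.

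Among cap-binding and poly(A) factors, PAB1 (YER165W), the poly(A)-binding protein, led all 40 genes by its mean. It had 651 and 861 RPKM in dbp1Δ (756 ± 149, SD), against 910 and 910 RPKM in wild type (910 ± 0.483, SD, n = 2 each). Both dbp1Δ libraries were below both wild-type libraries, and the fitted log2 fold change was -0.28 (95% interval -0.69 to 0.13, limma adjusted p = 1.0). It was -0.079 without dbp1Δ replicate 1 and -0.48 without dbp1Δ replicate 2. CDC33 (YOL139C), the cap-binding protein eIF4E, had 146 and 92.6 RPKM in dbp1Δ and 97.7 and 96.3 RPKM in wild type, so that only dbp1Δ replicate 1 was above wild type. TIF3 (YPR163C), eIF4B, an activator of the eIF4A helicase, had 105 and 122 RPKM in dbp1Δ and 112 and 122 RPKM in wild type. TIF4631 (YGR162W), the first of 2 genes for the scaffold eIF4G, had 65.2 and 74.1 RPKM in dbp1Δ and 66.7 and 79.4 RPKM in wild type. TIF4632 (YGL049C), the other eIF4G gene, was the lowest of the class, at 32.0 and 30.2 RPKM in dbp1Δ and 31.4 and 34.3 RPKM in wild type. The genotypes overlapped for CDC33, TIF3 and both eIF4G genes.

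The eIF4E-binding inhibitors differed from each other. CAF20 (YOR276W), which competes with eIF4G for eIF4E, had 58.0 and 30.7 RPKM in dbp1Δ, against 30.1 and 23.4 RPKM in wild type. The dbp1Δ values rest on 143 and 65 reads and the wild-type values on 68 and 46 reads. The groups did not overlap, but dbp1Δ replicate 2 exceeded wild type replicate 1 by less than their counting error. Its log2 fold change of 0.66 ± 0.30 (SE, 95% interval -0.03 to 1.35) was the largest of the 40, with a limma adjusted p of 1.0. It was 0.21 without dbp1Δ replicate 1 and 1.11 without dbp1Δ replicate 2. EAP1 (YKL204W), the other inhibitor of this kind, had 81.6 and 104 RPKM in dbp1Δ and 95.6 and 97.8 RPKM in wild type, with the dbp1Δ libraries on either side. GCN2 (YDR283C), the kinase that phosphorylates eIF2 alpha when amino acids are scarce, was the lowest of the regulators, at 10.1 and 10.5 RPKM in dbp1Δ, against 11.8 and 11.8 RPKM in wild type. The genotypes did not overlap for GCN2, and the log2 fold change was -0.19 (95% interval -0.70 to 0.32). TMA64 (YDR117C), the eIF2D homolog linked to recycling of the small subunit, was the highest of the class, with 168 and 205 RPKM in dbp1Δ and 195 and 189 RPKM in wild type. TIF6 (YPR016C), eIF6, which keeps free large subunits from joining, had 134 and 168 RPKM in dbp1Δ and 158 and 170 RPKM in wild type.

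The elongation factors spanned the widest range of any class as a ratio of the highest to the lowest mean RPKM. The low end of this range is the value listed for EFT1, whose level is uncertain, as are those of EFT2, TEF1 and TEF2. Without these genes the ranking did not hold. The class then ran from 40.9 RPKM for TEF4 to 790 RPKM for HYP2. That is a narrower ratio than from FUN12 (15.2 RPKM) to SUI1 (429 RPKM) in the start site class. HYP2 (YEL034W), eIF5A, which relieves stalled peptide bond formation, had 858 and 721 RPKM in dbp1Δ and 729 and 853 RPKM in wild type. EFB1, the nucleotide exchange subunit eEF1B alpha, had 213 and 141 RPKM in dbp1Δ and 164 and 173 RPKM in wild type. The gamma subunit of the same complex has a pair of genes: CAM1 (YPL048W) had 432 and 451 RPKM in dbp1Δ and 434 and 421 RPKM in wild type. TEF4 (YKL081W), the other gamma gene, had 60.2 and 28.0 RPKM in dbp1Δ and 35.7 and 39.7 RPKM in wild type. TEF4 was thus highest and lowest in the dbp1Δ libraries, while CAM1 stayed within a narrow band. YEF3 (YLR249W), the eEF3 ATPase, had 74.4 and 56.0 RPKM in dbp1Δ and 51.5 and 72.0 RPKM in wild type. TEF1 and TEF2 encode the same eEF1A protein and EFT1 and EFT2 the same eEF2 protein from near-identical ORFs, so the split of reads within these pairs is uncertain and so may be their level, since the treatment of reads with several matches is not given in the sources used here. TEF2 was listed at 28.3 to 36.5 RPKM and TEF1 at 6.25 to 9.44 RPKM. EFT2 was listed at 16.7 to 20.4 RPKM and EFT1 (YOR133W), the lowest of the 40 genes, at 4.62 and 5.38 RPKM in dbp1Δ and 5.58 and 4.82 RPKM in wild type.

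The termination and recycling factors ordered the libraries alike. SUP45 (YBR143C), eRF1, which reads stop codons, had 59.9 and 36.6 RPKM in dbp1Δ and 40.2 and 40.4 RPKM in wild type. SUP35 (YDR172W), the GTPase eRF3, had 66.8 and 37.4 RPKM in dbp1Δ and 45.6 and 46.8 RPKM in wild type. RLI1 (YDR091C), the iron-sulphur ATPase that splits terminated ribosomes, had 35.5 and 12.2 RPKM in dbp1Δ and 14.1 and 16.5 RPKM in wild type. All 3 genes were highest in dbp1Δ replicate 1 and lowest in dbp1Δ replicate 2, with both wild-type libraries between. Their summed RPKM was 162 and 86.1 in dbp1Δ and 99.9 and 104 in wild type.

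**Figure D2:**
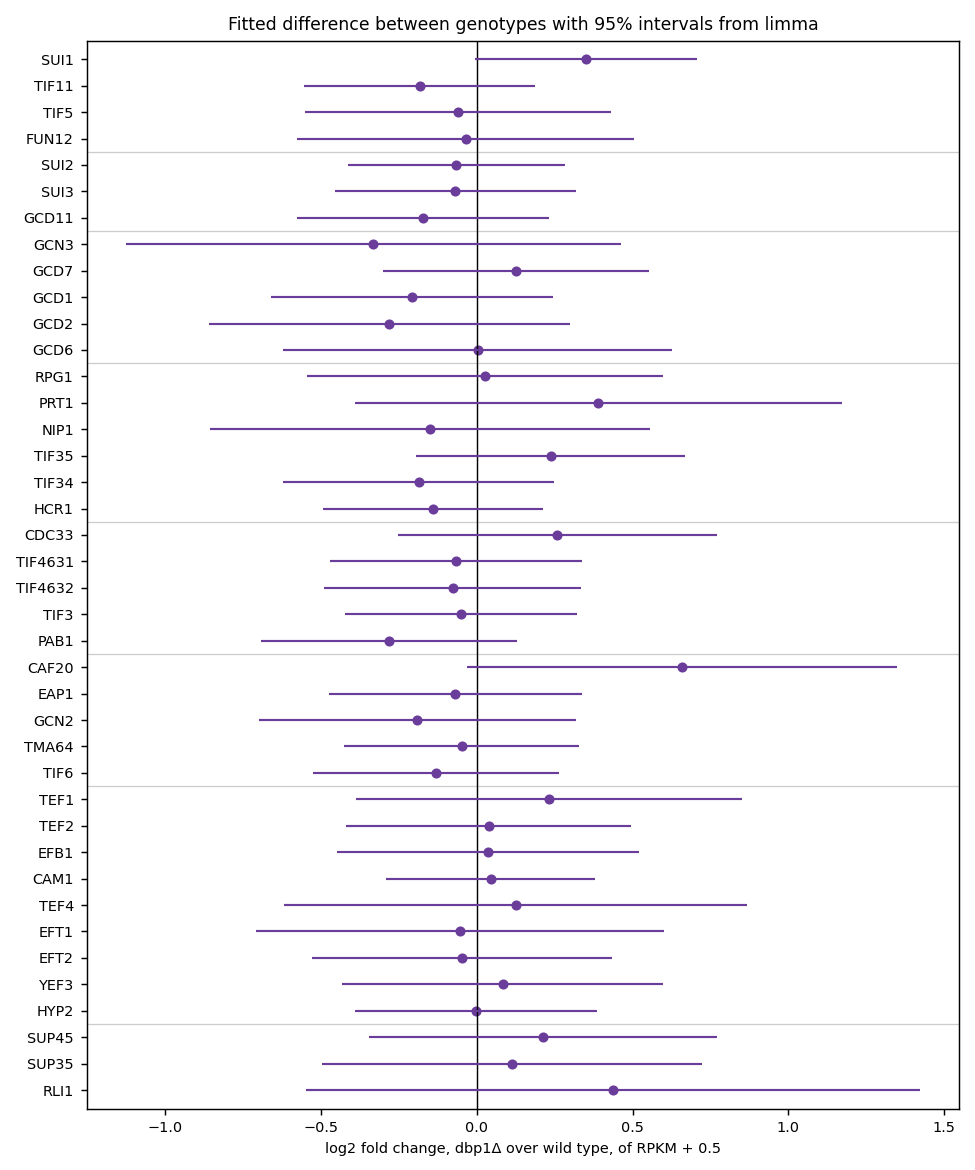
Log2 fold change of dbp1Δ over wild type for each of the 40 ORFs, on log2(RPKM + 0.5), with 95% intervals from limma (2 libraries per genotype). Every interval crosses 0, and those of GCN3, PRT1, CAF20 and RLI1 reach beyond a 2-fold change.

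Between genotypes, 0 of the 40 genes passed limma at an adjusted p under 0.05, where 0.0375% of all 5338 tested ORFs did (2 ORFs). At an unadjusted p under 0.05 there were also 0 of 40, against 1.67% of all tested ORFs (89). A test with limma voom on the recovered reads called 0 of the 39 genes with reads, against 0.0214% of all ORFs tested that way, and 0 of 39 at an unadjusted p under 0.05, against 1.22%. The 40 fold changes ran from -0.33 for GCN3 to 0.66 for CAF20, with 17 above 0 and 23 below. The 42.5% above 0 compares with 43.0% over all tested ORFs, and the median of -0.05 with -0.03. The 5 highest were CAF20, RLI1 (0.44 ± 0.43, SE), PRT1 (0.39 ± 0.34), SUI1 and CDC33 (0.26 ± 0.22). The 5 lowest were GCN3 (-0.33 ± 0.34), PAB1, GCD2 (-0.28 ± 0.25), GCD1 (-0.21 ± 0.20) and GCN2.

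The 95% intervals of 36 of the 40 genes lay within a 2-fold change in either direction, and the other 4 were GCN3, PRT1, CAF20 and RLI1. The median half-width of these unadjusted intervals was 0.47 on the log2 scale. The groups did not overlap for 4 genes above wild type (SUI1, GCD7, TIF35 and CAF20) and for 4 below it (GCD1, HCR1, PAB1 and GCN2). These 8 of 40 compare with 24.9% of all tested ORFs, 9.59% above and 15.3% below. For each of the 8 except PAB1, the nearest libraries of the 2 genotypes had overlapping 95% counting intervals. By class, fold changes were above 0 for 3 of 3 termination and recycling genes, 6 of 9 elongation genes, 3 of 6 eIF3 genes, 2 of 5 eIF2B genes, 1 of 4 start site genes, 1 of 5 genes each of the cap-binding and the regulator class and 0 of 3 eIF2 genes. No gene of any class passed the test. The signs turned with dbp1Δ replicate 1: without it 20 of the 40 genes changed sign, and 0 of 3 termination and recycling genes, 3 of 9 elongation genes, 4 of 5 regulators and 2 of 3 eIF2 genes were above 0. Without dbp1Δ replicate 2, 7 of the 40 genes changed sign. The share of all tested ORFs that changed sign was not computed, so these counts cannot be read as particular to the 40 genes.

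The call depended on 1 library. Without dbp1Δ replicate 2, limma called 9 of the 40 genes, with 9.70% of all tested ORFs called in the same fit. In that fit RLI1 (1.19), CAF20 (1.11), TEF4 (0.67), CDC33 (0.58), SUP45 (0.57), SUP35 (0.53) and SUI1 (0.45) were higher, and PAB1 (-0.48) and GCD11 (-0.37) lower, with adjusted p between 0.0156 and 0.0463. It sets the single library dbp1Δ replicate 1 against wild type and takes that library to vary like the wild-type pair. Without dbp1Δ replicate 1, wild type replicate 1 or wild type replicate 2, 0 of the 40 were called, with 0.0187%, 0.112% and 0.131% of all tested ORFs.

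**Figure D3:**
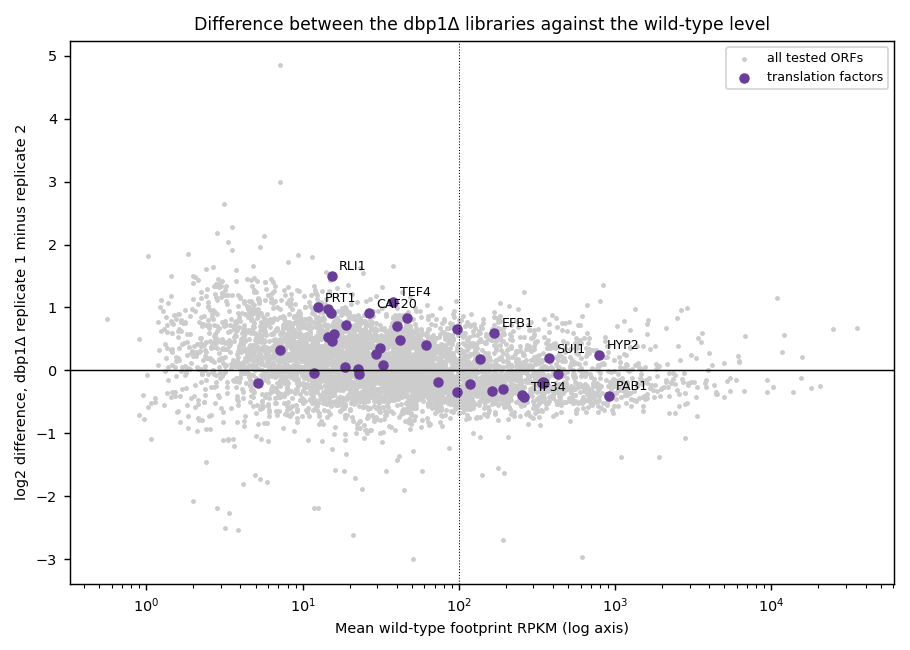
Difference between dbp1Δ replicates 1 and 2 on log2(RPKM + 0.5) against the mean wild-type RPKM (log axis), for the 40 translation factor ORFs (purple) over all 5338 tested ORFs (grey). The dotted line marks 100 RPKM: 21 of 26 genes left of it lie above 0, and 10 of 14 right of it lie below.

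The dbp1Δ libraries differed from each other by more than the wild-type libraries did. The median absolute difference over the 40 genes was 0.36 on the log2 scale for the dbp1Δ pair and 0.11 for the wild-type pair, against 0.31 and 0.12 over all tested ORFs. The gap was wider in the dbp1Δ pair for 33 of 40 genes, where 73.4% of all tested ORFs had the wider gap in that pair. On log2(RPKM + 0.5), RLI1 (1.50), TEF4 (1.09) and PRT1 (1.01) were at least 2-fold higher in dbp1Δ replicate 1 than in replicate 2, and GCN3 (0.97) and CAF20 (0.91) followed. In RPKM with no pseudocount GCN3 was 2.02-fold higher, which makes 4 of 40 genes, against 5.40% of all tested ORFs. The 3 of 40 with the pseudocount compare with 4.16% of all tested ORFs 2-fold or more apart, and 3.15% with replicate 1 the higher. Between the wild-type libraries 0 of 40 genes were 2-fold apart, against 0.955% of all tested ORFs.

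Counting error was set beside this gap. For RLI1 the dbp1Δ libraries held 363 and 107 reads, with exact 95% Clopper-Pearson intervals of 31.9 to 39.3 RPKM and 9.98 to 14.7 RPKM, and the wild-type libraries held 132 and 135 reads, with overlapping intervals. The dbp1Δ intervals were apart for 26 of 39 genes, 16 higher in replicate 1 and 10 lower, where they were apart for 39.6% of 4689 ORFs with recovered reads. The wild-type intervals were apart for 5 of 39 genes, against 6.76%. The genes had a median of 291 reads, against 200 over all tested ORFs, so their intervals were somewhat narrower.

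The direction of this gap went with the level of the gene. Of the 26 genes under a mean of 100 RPKM in wild type, 21 had more RPKM in dbp1Δ replicate 1 than in the other dbp1Δ library, at a median difference of 0.48. Of the 14 genes at or above it, 4 were higher and 10 lower, with a median of -0.20, and PAB1 (-0.40), TIF34 (-0.42) and GCD11 (-0.39) were among the lower ones while HYP2, EFB1, SUI1 and SUI3 were higher. All tested ORFs split the same way, less widely: 60.5% of 4015 under the limit were higher (median 0.12) and 35.9% of 1323 at or above it (median -0.14). The correlation of the difference with the log2 wild-type level was r = -0.52 and rho = -0.53 across the 40 genes, and -0.27 and -0.31 across all tested ORFs, as a description over points that share the same libraries. The limit of 100 RPKM was chosen after the values were seen. After median centring 20 of 26 and 4 of 14 genes were higher in replicate 1, and after quantile normalization 19 of 26 and 5 of 14.

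Other gene lists were compared between the same libraries, where 54.4% of all tested ORFs and 25 of the 40 translation factors were higher in dbp1Δ replicate 1 than in the other dbp1Δ library. All 10 of 10 ribosome biogenesis genes, a list that held NOP1, NSR1 and UTP10, were higher in dbp1Δ replicate 1 than in replicate 2 (median 0.85), with summed RPKM of 210 and 119 in dbp1Δ and 119 and 149 in wild type. Of the meiotic markers 9 of 10 were higher in dbp1Δ replicate 1 (median 0.64), and 0 of the 3 haploid markers were. The meiotic exception was NDT80, with 1272 RPKM in dbp1Δ replicate 1 and 1653 RPKM in replicate 2. SPS1, counted as higher, was nearly equal, at 4032 and 4016 RPKM. None of the markers in the table was at 0. Their part in the differences of the translation factors was not tested.

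**Figure D4:**
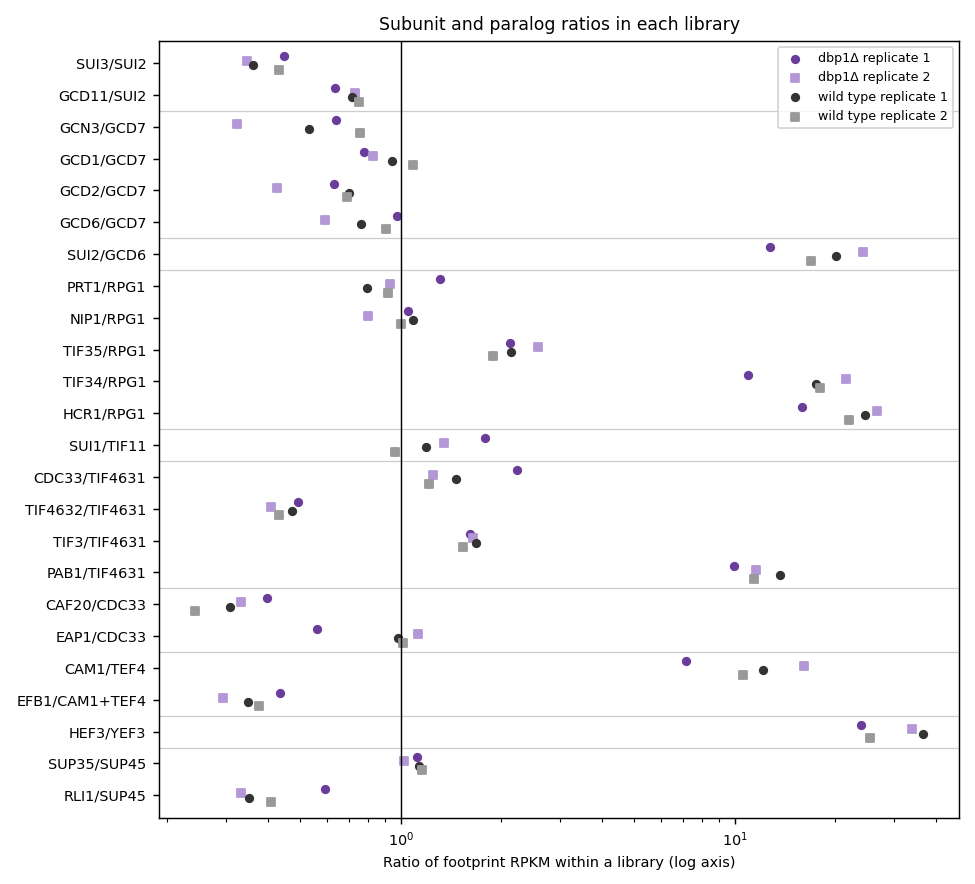
Ratios of footprint RPKM between subunits or paralogs within each library (log axis), 1 point per library, with lines between complexes and a solid line at equal levels. The dbp1Δ libraries are the more widely spaced pair in 19 of 24 ratios, as for TIF34/RPG1 at 11.0 in dbp1Δ replicate 1 and 17.6 to 21.5 in the other libraries. Of all tested ORFs taken singly, 73.4% had the wider gap in the dbp1Δ pair. In wild type TIF34 lay above 100 RPKM and RPG1 below it.

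Ratios within a library do not depend on its scaling. A ratio of a gene above 100 RPKM to a gene below it, such as TIF34/RPG1, HCR1/RPG1 or SUI2/GCD6, still takes in the gap by level between the dbp1Δ libraries described above. Of 24 ratios, 6 did not overlap between genotypes, where 26.0% of the ratios of all pairs of tested ORFs did not. SUI1/TIF11, eIF1 over eIF1A, was 1.78 and 1.35 in dbp1Δ, against 1.19 and 0.962 in wild type. PRT1/RPG1, eIF3b over eIF3a, was 1.31 and 0.930 in dbp1Δ, against 0.795 and 0.913 in wild type, a gap that for dbp1Δ replicate 2 was small. CAF20/CDC33, inhibitor over eIF4E, was 0.398 and 0.331 in dbp1Δ, against 0.309 and 0.243 in wild type. These 3 were higher in dbp1Δ, and GCD1/GCD7, GCD2/GCD7 and SUP35/SUP45 were lower. GCD1/GCD7 was 0.775 and 0.823 in dbp1Δ, against 0.939 and 1.09 in wild type. GCD2/GCD7 was 0.631 and 0.426 in dbp1Δ, against 0.700 and 0.688 in wild type. SUP35/SUP45, eRF3 over eRF1, was 1.12 and 1.02 in dbp1Δ, against 1.13 and 1.16 in wild type. The nearest libraries of the 2 genotypes were also close for SUP35/SUP45, GCD2/GCD7 and CAF20/CDC33, and counting error of the ratios was not computed. GCD1/GCD7 and GCD2/GCD7 share GCD7, which was itself higher in dbp1Δ, so they are not separate observations. The ratios are given as a description, with no test.

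The ratios also show how evenly complexes, and factors that act together, were footprinted. The eRF pair lay between 1.02 and 1.16 in every library. CDC33/TIF4631, eIF4E over eIF4G, ran from 1.21 to 2.23, and TIF3/TIF4631, eIF4B over eIF4G, from 1.53 to 1.68. Within eIF3 the levels were uneven: TIF34/RPG1 was 11.0 and 21.5 in dbp1Δ and 17.6 and 18.0 in wild type. HCR1/RPG1 was 16.0 and 26.8 in dbp1Δ and 24.5 and 22.0 in wild type. SUI2/GCD6, eIF2 alpha over the catalytic subunit of its exchange factor, was 12.7 and 24.2 in dbp1Δ and 20.1 and 16.9 in wild type. EAP1/CDC33 was 0.560 and 1.13 in dbp1Δ and 0.979 and 1.02 in wild type, so the dbp1Δ libraries lay on either side of wild type. RLI1/SUP45 was 0.592 and 0.333 in dbp1Δ and 0.351 and 0.409 in wild type. The median SD of a log2 ratio was 0.35 in dbp1Δ and 0.14 in wild type, and 19 of 24 ratios had the larger SD in dbp1Δ. The share over all ORF pairs was not computed, and of all tested ORFs taken singly 73.4% had the wider gap in dbp1Δ.

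**Figure D5:**
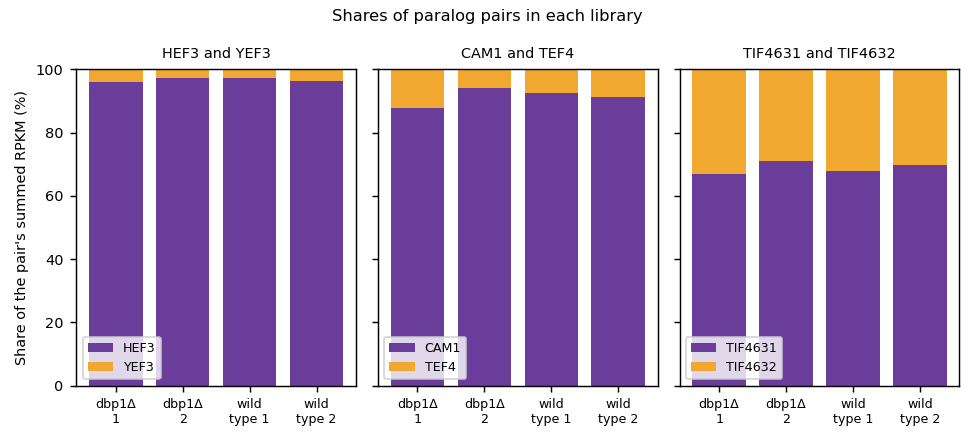
Share of each paralog in the pair's summed footprint RPKM (percent) in each library, for eEF3 (HEF3 and YEF3), eEF1B gamma (CAM1 and TEF4) and eIF4G (TIF4631 and TIF4632). HEF3 holds at least 96.0% in every library, CAM1 between 87.8% and 94.2%, and TIF4631 between 67.1% and 71.0%.

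Paralog pairs were used unequally. HEF3 (YNL014W), the second eEF3 gene and no member of the list, had 1784 and 1898 RPKM in dbp1Δ and 1887 and 1833 RPKM in wild type. It ranked 85 of 5371 ORFs by its mean and was 24.0 to 36.7 times as high as YEF3 in RPKM, the gene counted among the 40. HEF3 took 96.0% and 97.1% of the pair in dbp1Δ and 97.3% and 96.2% in wild type, so nearly all eEF3 footprints were assigned to it. CAM1 took 87.8% and 94.2% of the eEF1B gamma pair in dbp1Δ and 92.4% and 91.4% in wild type, with the widest gap between the dbp1Δ libraries. TIF4631 took 67.1% and 71.0% of the eIF4G pair in dbp1Δ and 68.0% and 69.9% in wild type. Where paralogs share stretches of sequence, these shares also depend on how reads with several matches were assigned.

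Of 16 further translation factors on a second list, 15 were in the table (ANB1, the second eIF5A gene, was not analysed here). Of these 15, 0 passed limma at an adjusted p under 0.05, against 0.0375% of all tested ORFs. At an unadjusted p under 0.05 there were also 0, against 1.67%. With shares this low, 0 of 15 does not set these factors apart from other ORFs. There were 6 fold changes above 0 and 9 below (median -0.06), against 43.0% above 0 over all tested ORFs (median -0.03). The eIF4A genes TIF1 and TIF2, which encode the same protein, were listed at 4.99 to 7.70 RPKM and 17.8 to 28.2 RPKM, with the same uncertainty as TEF1 and TEF2. The rescue factor HBS1 had 100.5 and 132 RPKM in dbp1Δ and 129 and 136 RPKM in wild type. GCN4, the transcription factor whose translation follows eIF2 activity through upstream ORFs, had 1.98 and 13.8 RPKM in dbp1Δ and 6.01 and 1.65 RPKM in wild type, from 9 and 54 reads and from 25 and 6 reads. GCN4 was higher in dbp1Δ replicate 2 than in replicate 1, the reverse of most low genes among the 40, and the genotypes overlapped. LIA1, which completes the hypusine of eIF5A, had the highest fold change of this list (0.78 ± 0.41, SE, limma adjusted p = 1.0), with 38.6 and 15.8 RPKM in dbp1Δ and 11.1 and 18.2 RPKM in wild type.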

How the data were processed

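Footprint libraries of 2 dbp1Δ and 2 wild-type samples were grouped by the submitters' labels. The authors mapped reads to the SK1 genome and deposited RPKM values per ORF and library, raw reads divided by mapped reads and gene length. The submitters' processing notes name Bowtie2. Its version, the annotation, the treatment of reads with several matches and any filter are not given in the sources used here.

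Genotypes were compared on log2(RPKM + 0.5) in R 4.3.3 by limma 3.58.1 (lmFit, then eBayes with a trend). The fit held 5338 ORFs, those averaging 1 RPKM or more over the libraries, and no term but genotype. P-values were adjusted by Benjamini-Hochberg over these ORFs and called under 0.05. Such fold changes understate those of low genes. Other steps used matplotlib 3.10.9, scipy 1.17.1, pandas 2.3.3, numpy 2.4.6 and Python 3.11.15. Ratios and shares used RPKM with no pseudocount.

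Depth was recovered from the steps of the RPKM values with an ORF length reduced by 60 nt, which gave whole reads, within 0.02 reads, for 88.6% of values. Steps were tested on simulated data. In simulated reads with 200 changed ORFs, drawn from ORFs above a minimum of reads, limma called 56% of 2-fold and 97.0% of 4-fold changes. A 2-fold change can therefore go uncalled. The fit of the data called 2 ORFs, and Benjamini-Hochberg adjustment is stricter when fewer ORFs change than the 200 simulated. The 56% is therefore not the share to be expected in these data, where it may be far lower. Counting intervals are exact 95% Clopper-Pearson intervals and cover counting error only.

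Symbols came from the S288C annotation (assembly R64), which matched 40 of 40 genes. As the table was made on SK1, neither coordinates nor sequences are given. Members, lists and ratios were chosen with earlier results of these data known. Values per library are given for the highest and the lowest gene of each class by mean RPKM, the 5 highest and 5 lowest fold changes, the 5 genes furthest apart between the dbp1Δ libraries, and genes of the ratios printed. Other genes are named where a count or a class was described, after their values were seen.

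Alternatives were leaving out each library, the replicate number as a block, limma voom on recovered reads, eBayes with no trend, quantile normalization or median centring of libraries, pseudocounts of 0.1 and 1, and either no filter or one at 10 RPKM.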

Additional observations from a re-analysis of the deposited data

How the results depend on the processing

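The count of 0 of 40 called held under every alternative other than leaving out dbp1Δ replicate 2. Over the fits that leave out 1 library each it ran from 0 to 9, with 0 to 16 genes at an unadjusted p under 0.05, and the count for the second list from 0 to 1. The median log2 fold change ran from -0.10 to 0.13 in those fits, 0.13 without dbp1Δ replicate 2, and from -0.05 to -0.02 under the others. Sign changes were counted for the 40 genes only, not over all tested ORFs. Of the 40 genes, 20, 7, 5 and 7 changed sign without dbp1Δ replicate 1, dbp1Δ replicate 2, wild type replicate 1 and wild type replicate 2. Among the 10 with the highest and lowest fold changes, 5 changed sign: RLI1 ran from -0.32 to 1.19, PRT1 from -0.11 to 0.89, CDC33 from -0.066 to 0.58, GCN3 from -0.82 to 0.15 and GCD2 from -0.57 to 0.0055, with the cause not tested. The other 5 kept their sign, with CAF20 from 0.21 to 1.11, SUI1 from 0.25 to 0.45, PAB1 from -0.48 to -0.079, GCD1 from -0.31 to -0.10 and GCN2 from -0.21 to -0.17. The count of ratios without overlap ran from 10 to 20 when 1 library was left out, since 1 library against 2 overlaps less often by construction, and stayed at 6 with a pseudocount.

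Both genotypes have replicates labelled 1 and 2, and the labels do not say whether equal numbers share a culture or day. Equal numbers deviated from their group means with a correlation of -0.14 over all tested ORFs. With 2 libraries per genotype this value cannot decide whether they were paired. With the replicate block limma called 0 of 40 genes (lowest limma adjusted p = 0.494) and 25 of 5338 ORFs (0.468%), against 2 without it. With the numbers crossed, a pairing added after seeing the data, it called 0 of 40 and 28 ORFs (0.525%).

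With 2 libraries per genotype the p-values rest on the spread of these pairs, and dbp1Δ replicate 1 correlated least with the other libraries. GCN3, TEF1 and EFT1 had under 100 reads in every library, and reads of TEF1, TEF2, EFT1, EFT2, TIF1 and TIF2 cannot be assigned with certainty.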
